A study of Saccharomyces cerevisiae with 12 samples.

Results

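Aminoacyl-tRNA synthetases are the enzymes that join each amino acid to its transfer RNA, and this account covers the transcripts of 32 of them in wine yeast. They were chosen by name: 18 genes for enzymes that work mostly in the cytosol and 14 for enzymes of the mitochondrion. Each was read from the probe set that carries its symbol alone, and all 32 had 1 such probe set. They are 32 of the 5360 named genes whose signal passed a filter on dim probe sets. All 32 passed it, and 31 were above the array's background on all 12 arrays. The exception was DIA4, for a mitochondrial seryl-tRNA synthetase, which was above background on 10 arrays and on 1 of the 3 arrays of M25 in FSJ.

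Yeast makes protein in the cytosol and, for the few genes kept in mitochondrial DNA, inside the mitochondrion. Both systems need their own charged transfer RNAs. The mitochondrial members are nuclear genes whose products are imported. For many amino acids the nucleus holds separate cytosolic and mitochondrial enzymes, while ALA1, GRS1, HTS1 and VAS1 serve both compartments from a single gene. Loss of a mitochondrial synthetase usually costs yeast its ability to respire, whereas most cytosolic ones are needed for growth itself.

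The study compared 4 groups of 3 biological replicates on 12 one-colour Affymetrix yeast arrays: EC1118 in FSJ, EC1118 in SJ, M25 in FSJ and M25 in SJ. EC1118 is sold for winemaking, and M25 is a wild-type isolate held in a university's collection. SJ is a synthetic grape juice with 200 g/l glucose and ammonium as nitrogen source at pH 3.3, and FSJ is SJ to which ergosterol (15 mg/l) and oleic acid (15 mg/l) were added. All cultures came from a 24 h preculture in SJ at 28 °C, started at 1000000 cells/ml and were harvested at 60 h. Each strain is a single isolate, so a strain difference here is a difference between these isolates, and the signals average over all cells of a culture, so that less RNA per cell and fewer cells with the RNA cannot be told apart. Array to array correlations of log2 signal within a group ran between 0.919 and 0.986. The ratio of 3′ to 5′ control signals was 1.21 to 1.62 for ACT1 and 1.28 to 5.64 for SPT15, with the highest SPT15 ratio in M25 FSJ replicate 2. The 3′ probe set of the hybridisation control BioDn read 432.2 in EC1118 FSJ replicate 2 and 999.7 to 1446.2 on the other arrays. Its 5′ probe set read 118.4 in EC1118 FSJ replicate 2 and 190.1 to 299 on the others.

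The largest counts of called members came from the comparison of the strains, and most of those calls were mitochondrial enzymes. With lipids (FSJ), 11 of 14 mitochondrial synthetase transcripts were higher in EC1118 than in M25 and none was lower, where a call means a limma Benjamini-Hochberg adjusted p under 0.05. Over all 7349 probe sets tested, 22.7% were called higher and 12.4% lower in that comparison. Of the 18 cytosolic ones, 4 were called higher (FRS1, FRS2, GLN4 and WRS1) and 1 lower (DED81). Neither cytosolic share exceeded that of all probe sets. The median log2 difference, EC1118 over M25, was 1.00 for the mitochondrial enzymes, 0.0010 for the cytosolic ones and 0.13 for all probe sets. Without lipids (SJ), 6 of 14 mitochondrial transcripts were called higher and none lower, against 9.46% and 10.3% of all probe sets. No cytosolic transcript was called in SJ by limma, and none had an unadjusted p under 0.05, beside 14.7% of all probe sets higher and 17% lower at that unadjusted p. The SJ medians were 0.61 for the mitochondrial enzymes, -0.03 for the cytosolic ones and -0.04 for all probe sets.

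**Figure D1:**
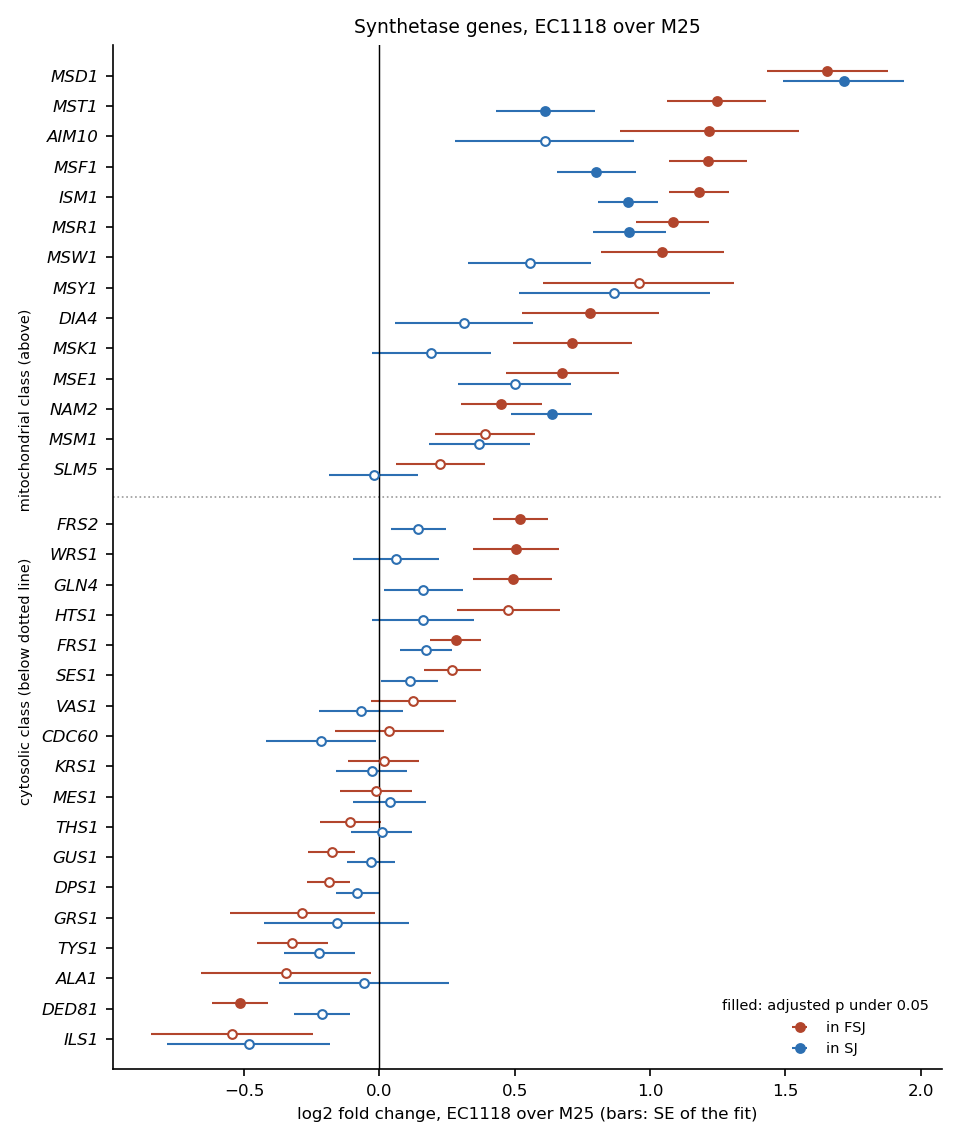
Log2 fold change of EC1118 over M25 in FSJ (red) and in SJ (blue) for each synthetase gene, mitochondrial enzymes above the dotted line and cytosolic ones below it; bars are the standard error of the fit (n = 3 arrays per group) and filled points passed an adjusted p of 0.05. The mitochondrial points lie to the right of 0 except SLM5 in SJ (-0.02), while the cytosolic points lie on both sides.

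Separation of the arrays followed the same order. In FSJ, 11 mitochondrial transcripts had all 3 EC1118 arrays above all 3 M25 arrays and none the reverse, compared with 28.2% and 16.6% of all probe sets. The cytosolic counts in FSJ were 4 above and 4 below. In SJ the mitochondrial counts were 11 above and 0 below, and the cytosolic counts 0 above and 3 below (DED81, ILS1 and TYS1), beside 19.2% and 22.7% of all probe sets. On each array, the median of the 14 mitochondrial genes relative to their own 12-array means was 0.21 to 0.44 in EC1118 FSJ, 0.43 to 0.53 in EC1118 SJ, -0.58 to -0.56 in M25 FSJ and -0.19 to -0.11 in M25 SJ. No EC1118 array overlapped an M25 array on this measure. The median of the 18 cytosolic genes lay between -0.12 and 0.25 on every array.

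**Figure D2:**
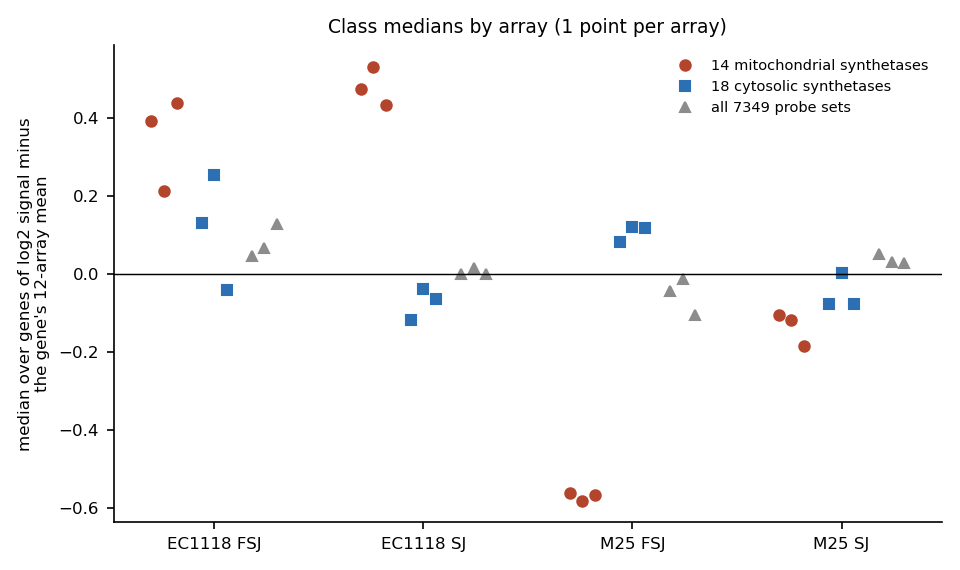
For each array (1 point), the median over genes of the log2 signal minus that gene's 12-array mean, for 14 mitochondrial synthetases (circles), 18 cytosolic synthetases (squares) and all 7349 probe sets (triangles). The 6 EC1118 arrays lie at 0.21 to 0.53 for the mitochondrial genes and the 6 M25 arrays at -0.58 to -0.11, with M25 FSJ lowest.

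MSD1, the mitochondrial aspartyl-tRNA synthetase (YPL104W, chromosome XVI), differed most. Its signals were 185.1, 159.1 and 203.3 in EC1118 FSJ and 304.6, 283.6 and 258.4 in EC1118 SJ, against 73.6, 44.3 and 58.8 in M25 FSJ and 69.1, 77.4 and 117.8 in M25 SJ. Every EC1118 array exceeded every M25 array. The difference was 3.15-fold in FSJ (log2 1.65 ± 0.22 SE, limma adjusted p = 0.000179) and 3.28-fold in SJ (log2 1.72 ± 0.22 SE, adjusted p = 0.000225). ISM1, which charges isoleucine in mitochondria (YPL040C, chromosome XVI), varied little within groups. It read 301.4, 294.5 and 319.4 in EC1118 FSJ and 301.4, 289.1 and 286.4 in EC1118 SJ, against 128.4, 134.9 and 140.1 in M25 FSJ and 158.5, 143.9 and 162.1 in M25 SJ. The lowest EC1118 array stood well above the highest M25 array, and ISM1 was higher in EC1118 by 2.27-fold in FSJ (limma adjusted p = 1.25e-05) and 1.89-fold in SJ (adjusted p = 0.000124).

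MSR1, the mitochondrial arginyl-tRNA synthetase (YHR091C, chromosome VIII), gave 563.2, 484.9 and 629.2 in EC1118 FSJ and 662.7, 670.1 and 594.7 in EC1118 SJ, against 234.7, 289.4 and 266.1 in M25 FSJ and 364.7, 309.7 and 342.3 in M25 SJ. Again no array of one strain reached the other. The EC1118 signal was 2.12-fold higher in FSJ (limma adjusted p = 0.000105) and 1.90-fold in SJ (adjusted p = 0.000491). For MSF1, the phenylalanyl enzyme of mitochondria (YPR047W, chromosome XVI), the arrays read 88.2, 98.7 and 105.1 in EC1118 FSJ and 92.7, 104.0 and 116.9 in EC1118 SJ, against 44.0, 45.0 and 37.0 in M25 FSJ and 61.3, 59.6 and 58.2 in M25 SJ. The 2 strains were separate in both media. The fold was 2.32 in FSJ (limma adjusted p = 7.66e-05) and 1.74 in SJ (adjusted p = 0.00221). The calls of MSD1, ISM1, MSR1 and MSF1 in both media held under all 21 alternative settings tried for each.

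MST1, the threonyl-tRNA synthetase of mitochondria (YKL194C, chromosome XI), read 109.0, 98.9 and 145.2 in EC1118 FSJ and 132.8, 104.2 and 116.4 in EC1118 SJ, against 40.7, 50.7 and 56.9 in M25 FSJ and 70.3, 81.6 and 78.4 in M25 SJ. The strains did not overlap in either medium, and the M25 FSJ arrays were the lowest of all 12. MST1 was 2.37-fold higher in EC1118 in FSJ (limma adjusted p = 0.000309) and 1.53-fold in SJ (adjusted p = 0.0341). NAM2, the mitochondrial leucyl enzyme that also takes part in splicing mitochondrial introns (YLR382C, chromosome XII), gave 114.0, 122.0 and 154.9 in EC1118 FSJ and 150.5, 174.4 and 138.5 in EC1118 SJ, against 93.4, 97.9 and 92.3 in M25 FSJ and 106.5, 100.3 and 90.4 in M25 SJ. It was the only called mitochondrial gene other than MSD1 with a larger log2 difference in SJ than in FSJ, and that difference between media was not called. The EC1118 signal was 1.37-fold higher in FSJ (limma adjusted p = 0.0353) and 1.56-fold in SJ (adjusted p = 0.0105).

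**Figure D3:**
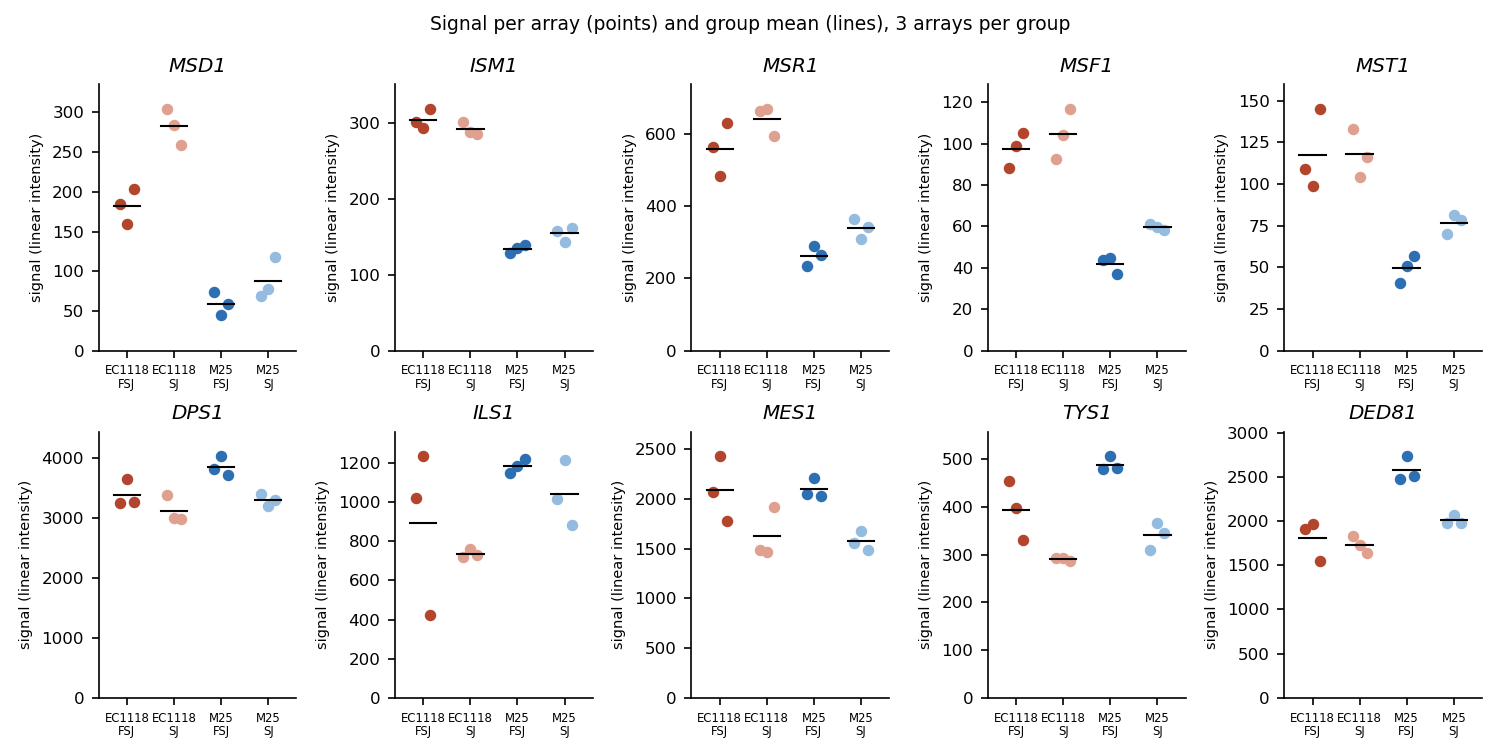
Signal (linear intensity, axes starting at 0) on each array for 5 mitochondrial synthetases (top row) and 5 cytosolic ones (bottom row) in EC1118 FSJ, EC1118 SJ, M25 FSJ and M25 SJ; points are arrays and lines group means (n = 3). In the top row the EC1118 points lie above the M25 points in both media, and in the bottom row DED81 in M25 FSJ stands at 2476.5 to 2736.4, above the other groups.

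A further 5 mitochondrial transcripts were called higher in EC1118 in FSJ and not in SJ. The tryptophanyl enzyme MSW1 (YDR268W) read 136.4, 93.3 and 135.0 in EC1118 FSJ and 122.0, 134.7 and 114.7 in EC1118 SJ, against 69.5, 41.0 and 68.6 in M25 FSJ and 81.3, 99.6 and 73.3 in M25 SJ. Its strains were separate in both media, with a fold of 2.06 in FSJ (limma adjusted p = 0.00398) and 1.47 in SJ (adjusted p = 0.112). AIM10, which encodes a protein similar to prolyl-tRNA synthetases and affects mitochondrial inheritance (YER087W), read 134.8, 102.6 and 117.5 in EC1118 FSJ and 118.3, 127.1 and 120.9 in EC1118 SJ, against 79.9, 25.0 and 64.6 in M25 FSJ and 89.6, 76.8 and 74.3 in M25 SJ. The M25 FSJ replicate 2 value was far below the rest, and that array also had the highest SPT15 3′ to 5′ ratio. AIM10 was 2.33-fold higher in EC1118 in FSJ (log2 1.22 ± 0.33 SE, limma adjusted p = 0.0139), and without M25 FSJ replicate 2 the log2 difference was 0.71 (0.00906). In SJ it was 0.61 (adjusted p = 0.235), and 0.61 with an adjusted p of 0.0156 without M25 FSJ replicate 2, an array that enters the SJ test only through the shared spread.

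MSK1, the lysyl enzyme of mitochondria (YNL073W), gave 449.3, 327.7 and 404.2 in EC1118 FSJ and 504.2, 435.9 and 376.7 in EC1118 SJ, against 279.3, 161.0 and 300.7 in M25 FSJ and 364.7, 377.6 and 403.2 in M25 SJ. The strains were separate in FSJ and overlapped in SJ. The log2 difference was 0.71 in FSJ (limma adjusted p = 0.0259) and 0.19 in SJ (adjusted p = 0.619). Without M25 FSJ replicate 2, the lowest MSK1 array, the FSJ difference was 0.43 and was not called (0.0758). MSE1, which charges glutamate (YOL033W), read 153.3, 90.0 and 149.9 in EC1118 FSJ and 128.9, 162.4 and 137.6 in EC1118 SJ, against 90.4, 80.7 and 69.6 in M25 FSJ and 103.9, 111.4 and 88.1 in M25 SJ. It was the called mitochondrial gene whose FSJ arrays overlapped, since EC1118 replicate 2 fell just under M25 replicate 1. Its log2 difference was 0.68 in FSJ (limma adjusted p = 0.026) and 0.50 in SJ (adjusted p = 0.12). DIA4 (YHR011W) was the dimmest member, with 23.3, 37.5 and 24.8 in EC1118 FSJ and 27.8, 33.9 and 26.6 in EC1118 SJ, against 17.1, 20.2 and 12.4 in M25 FSJ and 23.2, 24.0 and 23.5 in M25 SJ. The groups were separate in both media but close to the background of 16.6 to 21.7, and the log2 difference was 0.78 in FSJ (limma adjusted p = 0.0324) and 0.31 in SJ (adjusted p = 0.452).

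Only 3 mitochondrial members were not called between the strains in either medium: MSY1, MSM1 and SLM5. The tyrosyl enzyme MSY1 read 92.6, 102.1 and 62.5 in EC1118 FSJ and 119.3, 87.5 and 110.6 in EC1118 SJ, against 43.4, 57.5 and 32.3 in M25 FSJ and 89.6, 31.5 and 67.3 in M25 SJ. Its log2 differences were 0.96 ± 0.35 SE in FSJ (limma adjusted p = 0.0529) and 0.87 in SJ (adjusted p = 0.109), and the wide spread in M25 SJ, where replicate 2 was lowest, stood beside them. It was called in FSJ without M25 SJ replicate 1 (adjusted p = 0.0371), M25 SJ replicate 2 (0.0148), M25 FSJ replicate 2 (0.0428) or EC1118 FSJ replicate 3 (0.0403), and in SJ without M25 SJ replicate 1 (0.0437), while without M25 SJ replicate 2 the SJ difference was 0.43 (0.379). MSM1, the methionyl enzyme, gave 129.2, 117.7 and 77.8 in EC1118 FSJ and 157.0, 144.3 and 145.9 in EC1118 SJ, against 69.0, 93.7 and 81.3 in M25 FSJ and 114.7, 118.5 and 112.9 in M25 SJ. EC1118 FSJ replicate 3 lay within the M25 FSJ range, while the SJ arrays were separate. The log2 difference was 0.39 in FSJ (limma adjusted p = 0.128), 0.61 without EC1118 FSJ replicate 3 (0.0122), 0.25 without replicate 1 (0.354), and 0.37 in SJ (adjusted p = 0.202). SLM5, the asparaginyl enzyme, read 48.5, 57.3 and 58.3 in EC1118 FSJ and 54.5, 49.5 and 50.2 in EC1118 SJ, against 46.2, 41.3 and 53.2 in M25 FSJ and 50.5, 60.4 and 46.4 in M25 SJ. It overlapped in both media and varied least among the mitochondrial genes, with a log2 range of 0.55 over the 12 arrays against 2.78 for MSD1.

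Among the cytosolic enzymes, both subunits of phenylalanyl-tRNA synthetase were higher in EC1118 in FSJ. FRS2 (YFL022C), the alpha subunit, read 1068.1, 1004.1 and 1125.4 in EC1118 FSJ and 893.4, 802.5 and 882.6 in EC1118 SJ, against 729.6, 696.9 and 803.0 in M25 FSJ and 737.1, 815.2 and 780.3 in M25 SJ. Its FSJ fold was 1.44 (log2 0.52 ± 0.10 SE, limma adjusted p = 0.00214), and the SJ arrays overlapped. FRS1 (YLR060W), the beta subunit, gave 3525.6, 3700.7 and 3569.3 in EC1118 FSJ and 2897.6, 2931.0 and 3048.5 in EC1118 SJ, against 3046.3, 3162.5 and 2688.5 in M25 FSJ and 2934.1, 2342.1 and 2631.4 in M25 SJ. The FSJ arrays were separate and the fold was 1.22 (limma adjusted p = 0.037). WRS1, which charges tryptophan (YOL097C), read 1455.9, 1537.4 and 1351.3 in EC1118 FSJ and 861.2, 1152.5 and 1152.6 in EC1118 SJ, against 1048.7, 1220.7 and 828.1 in M25 FSJ and 1112.2, 935.8 and 967.4 in M25 SJ. The EC1118 FSJ arrays were above all others, and the FSJ fold between strains was 1.42 (limma adjusted p = 0.0276).

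GLN4, the glutaminyl enzyme (YOR168W), read 269.0, 243.7 and 212.7 in EC1118 FSJ and 153.4, 181.6 and 178.8 in EC1118 SJ, against 151.7, 190.2 and 173.6 in M25 FSJ and 138.8, 170.2 and 150.7 in M25 SJ. Here too EC1118 FSJ stood above the other groups, with a strain fold of 1.41 in FSJ (limma adjusted p = 0.0213). DED81, the cytosolic asparaginyl enzyme (YHR019C, chromosome VIII), ran the other way. Its signals were 1913.0, 1966.9 and 1546.5 in EC1118 FSJ and 1828.1, 1732.5 and 1638.4 in EC1118 SJ, against 2476.5, 2736.4 and 2505.1 in M25 FSJ and 1981.2, 2066.0 and 1972.9 in M25 SJ. Every M25 array exceeded every EC1118 array. DED81 was 1.43-fold lower in EC1118 in FSJ (log2 -0.51 ± 0.10 SE, limma adjusted p = 0.00233), and in SJ the log2 difference was -0.21 (0.179).

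Array scaling moved these counts in FSJ. All 7349 probe sets gave 1665 higher and 914 lower calls as deposited, 1172 and 1138 after quantile normalization, and 942 and 1595 with each array centred on its median, which moved the median of all probe sets by -0.24 (quantile -0.13). The FSJ medians with centred arrays were 0.76 for the mitochondrial enzymes, -0.24 for the cytosolic ones and -0.11 for all probe sets. Quantile normalization gave 0.78, 0.06 and -0.0006, a narrower gap between the classes than as deposited. With centring, 7 mitochondrial members stayed called (MSD1, MST1, AIM10, MSF1, ISM1, MSR1 and MSW1), SLM5 changed sign, no cytosolic gene was called higher, and DED81, DPS1, GUS1, THS1 and TYS1 were called lower. Calls were lost on leaving out 1 array for NAM2 (any M25 FSJ replicate or EC1118 FSJ replicate 3, adjusted p 0.0571 to 0.129), MSE1 (M25 FSJ replicate 2 or 3, EC1118 FSJ replicate 1 or 3, 0.0545 to 0.0901), MSK1 (M25 FSJ replicate 2, EC1118 FSJ replicate 1 or 3, 0.0636 to 0.0823) and DIA4 (M25 FSJ replicate 1 or 3, EC1118 FSJ replicate 2, 0.0562 to 0.119). Among the cytosolic calls, FRS1 was lost without M25 SJ replicate 3, M25 FSJ replicate 1 or 3, or any EC1118 FSJ replicate (0.0526 to 0.131), GLN4 without M25 FSJ or EC1118 FSJ replicate 1 (0.0705 to 0.0807), and WRS1 without M25 FSJ replicate 1 or 3 or EC1118 FSJ replicate 1 or 2 (0.0549 to 0.107). HTS1 was gained at 0.047 without M25 FSJ replicate 3 and 0.0398 without EC1118 FSJ replicate 2, SES1 at 0.0203 without M25 FSJ replicate 2, and TYS1, lower, at 0.0296 without EC1118 FSJ replicate 1. In SJ, the MST1 call was lost without any of the M25 SJ replicates or without EC1118 SJ replicate 1 or 3 (0.0637 to 0.121), and MSE1 was gained at 0.0421 without EC1118 FSJ replicate 2.

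For 12 amino acids both enzymes were among the members, so the mitochondrial one could be set beside its cytosolic counterpart on the same arrays. The log2 strain difference of the mitochondrial enzyme exceeded that of the cytosolic one in 12 of 12 pairs in FSJ, by a median of 0.72 (0.40 to 1.84), and in 12 of 12 pairs in SJ, by a median of 0.57 (0.19 to 1.80). A shift shared by all genes of an array cancels in such a difference. A change that depends on signal intensity need not cancel, and the mitochondrial transcripts were mostly dimmer than the cytosolic ones. The pairs were not computed again after quantile normalization. These pair counts are a description with no test of their own, because the genes of a pair share the arrays. In FSJ, only the mitochondrial enzyme was called in 7 pairs, only the cytosolic one in 1 (asparagine), both in 2 (phenylalanine and tryptophan) and neither in methionine and tyrosine.

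**Figure D4:**
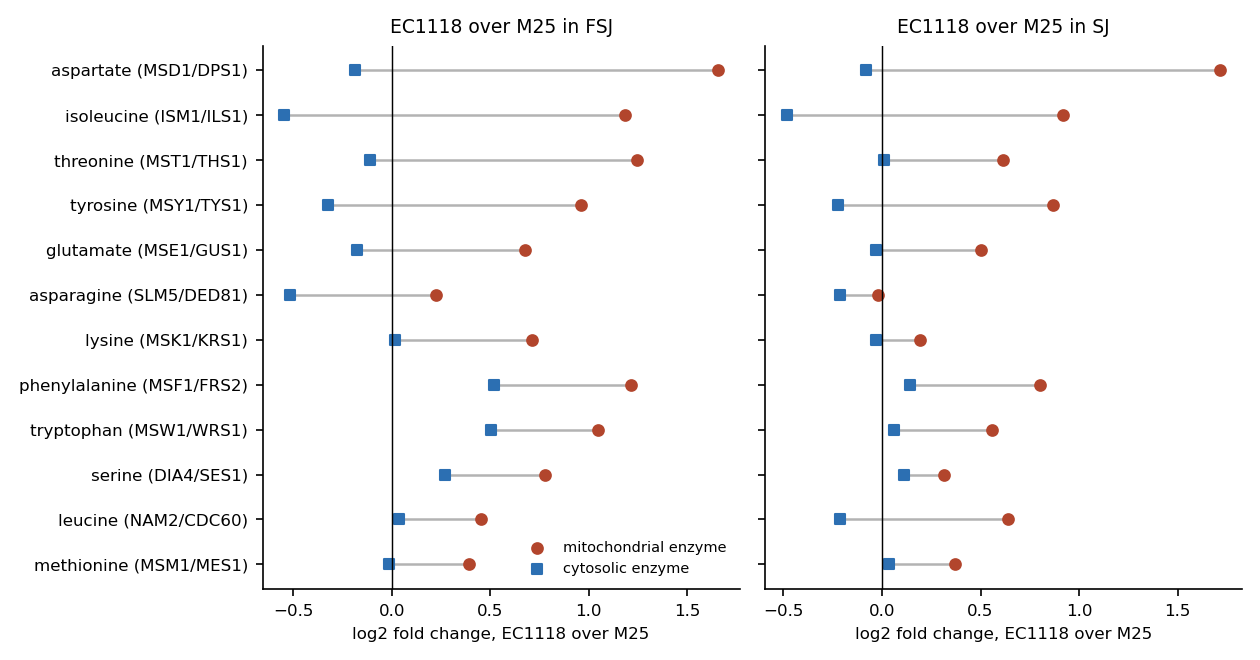
Log2 fold change of EC1118 over M25 for the mitochondrial (circles) and cytosolic (squares) enzyme of each of 12 amino acids, in FSJ (left) and SJ (right). Every circle lies to the right of its square; the widest gap is aspartate, 1.84 in FSJ and 1.80 in SJ.

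The aspartate pair was furthest apart. DPS1, the cytosolic aspartyl enzyme, read 3251.2, 3654.3 and 3264.3 in EC1118 FSJ and 3382.0, 3009.6 and 2985.1 in EC1118 SJ, against 3818.2, 4039.0 and 3718.3 in M25 FSJ and 3402.3, 3203.7 and 3299.5 in M25 SJ. Its log2 strain difference was -0.19 in FSJ and -0.08 in SJ, beside 1.65 and 1.72 for MSD1. The isoleucine pair lay on opposite sides of 0 in both media. ILS1, the cytosolic isoleucyl enzyme, gave 1019.5, 1236.4 and 424.6 in EC1118 FSJ and 718.6, 761.1 and 732.2 in EC1118 SJ, against 1149.0, 1182.5 and 1222.0 in M25 FSJ and 1017.2, 1217.8 and 884.0 in M25 SJ. EC1118 FSJ replicate 3 was the lowest ILS1 array, and the SJ arrays of the strains were separate. The log2 difference was -0.54 in FSJ (limma adjusted p = 0.183) and -0.48 in SJ (adjusted p = 0.305), where without EC1118 FSJ replicate 3, whose spread the SJ test shares, it was called lower (0.0171). The FSJ difference rested on EC1118 FSJ replicate 3: without it the log2 difference was -0.08 (limma adjusted p = 0.718), and without EC1118 FSJ replicate 2 it was -0.85 (0.036).

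THS1, GUS1, KRS1, CDC60 and SES1 were not called between the strains in either medium. THS1 (threonine) read 1216.5, 1198.2 and 1004.2 in EC1118 FSJ and 1068.7, 1211.2 and 1009.5 in EC1118 SJ, against 1140.1, 1283.7 and 1251.8 in M25 FSJ and 1027.1, 1154.6 and 1083.0 in M25 SJ. GUS1, the cytosolic glutamyl enzyme, gave 1775.2, 1610.9 and 1638.7 in EC1118 FSJ and 1618.3, 1811.8 and 1644.9 in EC1118 SJ, against 1854.9, 1879.7 and 1940.2 in M25 FSJ and 1608.0, 1794.9 and 1783.5 in M25 SJ. KRS1 (lysine) read 2712.6, 2853.9 and 2578.0 in EC1118 FSJ and 2668.8, 2815.8 and 2313.6 in EC1118 SJ, against 2966.4, 2182.4 and 2985.4 in M25 FSJ and 2362.5, 2720.2 and 2873.3 in M25 SJ. Of these, GUS1 in FSJ was the one with separate arrays, EC1118 below M25 (log2 -0.18, limma adjusted p = 0.143). CDC60, the cytosolic leucyl enzyme, gave 1144.7, 1052.4 and 676.8 in EC1118 FSJ and 698.1, 838.4 and 771.8 in EC1118 SJ, against 918.2, 1059.0 and 776.4 in M25 FSJ and 854.8, 1085.1 and 761.3 in M25 SJ. SES1 (serine) read 1472.0, 1608.9 and 1620.2 in EC1118 FSJ and 1349.0, 1503.4 and 1341.7 in EC1118 SJ, against 1232.1, 1484.2 and 1198.4 in M25 FSJ and 1352.5, 1222.3 and 1304.2 in M25 SJ. Both overlapped between strains in each medium, with log2 differences of 0.04 and 0.27 in FSJ and -0.21 and 0.11 in SJ, none called.

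Of the 4 genes named above as serving both compartments (ALA1, GRS1, HTS1 and VAS1), none was called in any of the 6 comparisons. HTS1 (histidine) ranged over 999.6 to 1384.9 in EC1118 FSJ, 984.9 to 1192.4 in EC1118 SJ, 623.7 to 1012.3 in M25 FSJ and 838.9 to 1037.5 in M25 SJ, a log2 strain difference of 0.48 in FSJ (limma adjusted p = 0.0702) and 0.25 without M25 FSJ replicate 2 (0.258). VAS1 (valine) ranged over 1031.9 to 1400.2 in EC1118 FSJ, 761.3 to 1154.1 in EC1118 SJ, 983.0 to 1139.9 in M25 FSJ and 953.9 to 1025.6 in M25 SJ, with log2 strain differences of 0.13 in FSJ and -0.07 in SJ. ALA1 (alanine) and GRS1 (glycine) each had a single low array in EC1118 FSJ, 366.5 in replicate 1 for ALA1 and 657.8 in replicate 3 for GRS1, and spanned 679.7 to 1087.5 and 1080.6 to 1646.4 on the other 11 arrays.

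The lipid supplement moved fewer members. In M25, FSJ over SJ, 2 of 14 mitochondrial transcripts fell (MSF1 and MST1) and none rose, and 1 of 18 cytosolic ones rose (TYS1) and none fell, where 2.84% of all probe sets were called higher and 5.91% lower. The log2 change was below 0 for all 14 mitochondrial genes as deposited (13 after quantile normalization, 12 with centred arrays) and above 0 for 16 of 18 cytosolic ones (14 after quantile normalization, 18 with centred arrays). Of all 7349 probe sets, 4399 were below 0 and 2941 above it as deposited. The medians were -0.51 for the mitochondrial enzymes, 0.13 for the cytosolic ones and -0.09 for all probe sets, and with centred arrays -0.33, 0.32 and 0.10. With quantile normalization they were -0.37, 0.09 and 0, and the classes lay closer together. The mitochondrial median was -0.39 without M25 FSJ replicate 2 and -0.40 without M25 FSJ replicate 3. Some falls rested partly on a single array. Without M25 FSJ replicate 2, AIM10 moved from -0.66 to -0.15, MSK1 from -0.68 to -0.40 and MSW1 from -0.53 to -0.28. DIA4 moved from -0.54 to -0.34 without M25 FSJ replicate 3. MSY1 went from -0.41 to -0.09 without M25 SJ replicate 1, and to -0.85 without M25 SJ replicate 2. All 3 FSJ arrays lay below all 3 SJ arrays for 8 mitochondrial genes and above them for 5 cytosolic ones (DED81, DPS1, GUS1, MES1 and TYS1), compared with 22.9% and 11.8% of all probe sets. The mitochondrial enzyme had the lower log2 change in 12 of 12 pairs, with a median difference of -0.55 (-0.94 to -0.10).

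In EC1118 the supplement led to no call among the 32, where 0.667% of all probe sets were called higher and 1.18% lower. At an unadjusted limma p under 0.05, 6 of 18 cytosolic genes were higher and 2 of 14 mitochondrial ones lower, compared with 10.1% and 5.69% of all probe sets at that unadjusted p. Separate arrays were seen for 5 cytosolic genes, all higher in FSJ (FRS1, FRS2, GLN4, TYS1 and WRS1), and for 2 mitochondrial ones, both lower (MSD1 and MSM1), beside 12.3% and 6.25% of all probe sets. The medians were -0.13 for the mitochondrial enzymes, 0.15 for the cytosolic ones and 0.06 for all probe sets. With centred arrays they were -0.19, 0.09 and 0.0041, and with quantile normalization -0.18, 0.18 and 0.03. The cytosolic median was 0.28 without EC1118 FSJ replicate 3, and the mitochondrial one was -0.07 without EC1118 FSJ replicate 2. The mitochondrial enzyme had the lower change in 11 of 12 pairs, with a median difference of -0.32, the exception being SLM5 beside DED81. Without EC1118 FSJ replicate 3, ILS1 (log2 0.61, limma adjusted p = 0.0492) and TYS1 (0.54, 0.0441) were called higher.

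**Figure D5:**
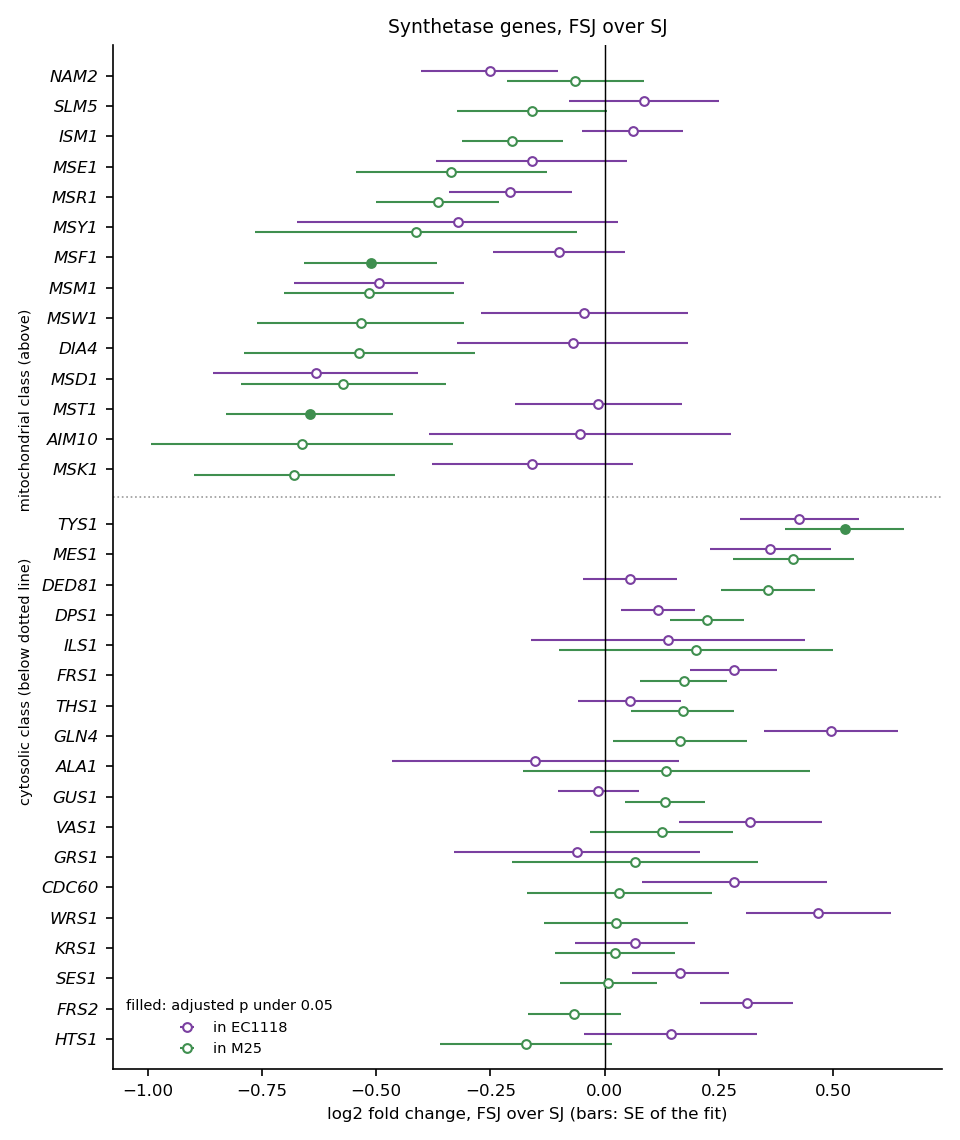
Log2 fold change of FSJ over SJ in EC1118 (purple) and in M25 (green) for each synthetase gene, mitochondrial enzymes above the dotted line and cytosolic ones below it; bars are the standard error of the fit (n = 3 arrays per group) and filled points passed an adjusted p of 0.05. In M25 the mitochondrial points run between -0.68 and -0.06 and the cytosolic ones between -0.17 and 0.53.

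TYS1, the cytosolic tyrosyl enzyme (YGR185C), was the clearest lipid-responsive member. It read 453.6, 397.8 and 331.5 in EC1118 FSJ against 293.8, 292.6 and 287.2 in EC1118 SJ, and 478.7, 506.9 and 480.9 in M25 FSJ against 309.5, 365.6 and 346.0 in M25 SJ. FSJ was above SJ on every array of either strain. TYS1 rose 1.44-fold in M25 (log2 0.53 ± 0.13 SE, limma adjusted p = 0.0286), and averaged over the strains by 1.39-fold (0.00779), a call kept under all 20 alternatives run. The EC1118 change alone was 0.43 (0.146). Averaged over the strains, MES1, the cytosolic methionyl enzyme (YGR264C), also rose, 1.31-fold (log2 0.39 ± 0.09 SE, limma adjusted p = 0.0247). Its arrays were 2071.9, 2430.8 and 1772.6 in EC1118 FSJ against 1487.7, 1470.5 and 1920.0 in EC1118 SJ, and 2051.2, 2208.0 and 2026.6 in M25 FSJ against 1554.6, 1679.2 and 1489.2 in M25 SJ. The groups were separate in M25 and overlapped in EC1118.

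On the falling side, the average over the strains called MSD1 (log2 -0.60 ± 0.16 SE, limma adjusted p = 0.0349) and MSM1 (-0.50 ± 0.13 SE, adjusted p = 0.0344), with nearly the same size in each strain: -0.63 in EC1118 and -0.57 in M25 for MSD1, and -0.49 and -0.52 for MSM1. In the average, 4.03% of all probe sets were called higher and 5.06% lower, and the class medians were -0.30 (mitochondrial) and 0.16 (cytosolic) beside -0.01 for all probe sets. MSF1 and MST1 fell in M25 by 0.51 and 0.65 on the log2 scale (limma adjusted p = 0.0492 for each), with changes of -0.10 and -0.01 in EC1118. With centred arrays or after quantile normalization none of these 4 was called, though each stayed below 0. The log2 change was then -0.54 and -0.54 for MSD1 (limma adjusted p = 0.0534 and 0.0575), -0.44 and -0.47 for MSM1 (0.0563 and 0.0557), -0.33 and -0.37 for MSF1 (0.168 and 0.131) and -0.46 and -0.53 for MST1 (0.131 and 0.146). Within single strains, MSD1 in M25 was -0.34 without M25 SJ replicate 3 and MSM1 in EC1118 was -0.27 without EC1118 FSJ replicate 3. The count of mitochondrial falls in M25 ran between 0 and 3 on leaving out 1 array, MSM1 being added without EC1118 FSJ replicate 3 (0.036) while MSF1 was lost without any array but EC1118 FSJ replicate 3 (0.0503 to 0.136) and MST1 without any but M25 FSJ replicate 3 and EC1118 FSJ replicates 2 and 3 (0.0549 to 0.144). For the average the count ran between 0 and 4, with MSR1 (0.0422) and MST1 (0.0499) added without EC1118 FSJ replicate 3. There MSD1 was lost without any array but M25 SJ replicate 1, M25 FSJ replicate 1 and EC1118 FSJ replicate 3 (0.0549 to 0.0779), and MSM1 without any but M25 FSJ replicate 2 and the 3 EC1118 FSJ arrays (0.0621 to 0.0775). The TYS1 rise in M25 was lost without any 1 of the 6 M25 arrays (0.0558 to 0.112), and without EC1118 FSJ replicate 3 the M25 rises also included DED81 (0.0169) and MES1 (0.046), while DED81 also passed without EC1118 FSJ replicate 2 (0.047). The averaged MES1 rise was lost without M25 SJ replicate 1 or 3, M25 FSJ replicate 2, EC1118 SJ replicate 1 or 2 or EC1118 FSJ replicate 2 (0.052 to 0.0657). The averaged count of rises ran between 1 and 5, with DED81 (0.0167), GLN4 (0.0385) and ILS1 (0.0179) added without EC1118 FSJ replicate 3 and FRS1 without M25 SJ replicate 1 (0.0371) or M25 FSJ replicate 3 (0.0396).

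No member's lipid response differed between the strains by the test of that difference itself, EC1118 minus M25. Over all probe sets 0.15% were called higher and 0.0544% lower. The unadjusted p was under 0.05 for 1 cytosolic gene, FRS2 (log2 0.38, limma adjusted p = 0.262), and 1 mitochondrial gene, MST1 (0.63, limma adjusted p = 0.285), both with the higher change in EC1118. At that unadjusted p, 11.9% of all probe sets were higher and 3.54% lower, so 2 of 32 members lay below the share of all probe sets. The medians of this difference were 0.25 for the mitochondrial enzymes, -0.0031 for the cytosolic ones and 0.16 for all probe sets, and with centred arrays they were 0.01, -0.25 and -0.09. Centring moves all genes of an array alike and so leaves the gap between the classes nearly as it was. After quantile normalization the medians were 0.05, 0.11 and 0.03, and the order of the classes was reversed.

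Synthetases outside the named members were read for the amino acids that lack a counterpart among them. YDR341C, the cytosolic arginyl enzyme, averaged 3283.9 in EC1118 FSJ against 4288.3 in M25 FSJ and was lower in EC1118 (log2 -0.39, limma adjusted p = 0.0128), where its mitochondrial counterpart MSR1 was higher by 1.08. YHR020W, the cytosolic prolyl enzyme, was also lower in EC1118 in FSJ, at 2058.4 against 2618.6 (log2 -0.35, limma adjusted p = 0.0073), beside 1.22 for AIM10. CRS1, the cysteinyl enzyme, which serves both compartments, was higher in EC1118 in FSJ, at 229.0 against 122.1 (log2 0.91, limma adjusted p = 0.000516). With lipids YDR341C rose in M25 (0.44, limma adjusted p = 0.0233) and in the average (0.33, 0.0158). GRS2, a second glycyl-tRNA synthetase gene, fell with lipids in M25 to 487.4 in FSJ against 876.3 in SJ (log2 -0.85, limma adjusted p = 0.00241) and in the average (-0.64, 0.00104), and without lipids was lower in EC1118 than in M25 (-0.54, 0.0116).

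Among partners of the synthetases, HER2, a subunit of the mitochondrial enzyme that makes glutaminyl-tRNA by amidation, was higher in EC1118 in both media. It averaged 89.7 in EC1118 FSJ and 95.9 in EC1118 SJ, against 22.1 in M25 FSJ and 25.1 in M25 SJ (log2 2.01 and 1.94, limma adjusted p = 0.000123 and 0.000256), and the M25 signals were near the background. GTF1, another subunit, was not called, and PET112, the third, was below background on all 12 arrays. ARC1, which binds the cytosolic methionyl and glutamyl enzymes, was higher in EC1118 in FSJ (log2 0.46, limma adjusted p = 0.025).

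The mitochondrial translation factors and ribosomal proteins were read the same way for comparison. Of 7 mitochondrial translation factors, 6 were higher in EC1118 in FSJ and 3 in SJ, and none was lower (medians 1.22 and 0.61). MEF1, an elongation factor, averaged 297.6 in EC1118 FSJ and 349.9 in EC1118 SJ against 122.3 in M25 FSJ and 180.7 in M25 SJ (log2 1.28 and 0.96, limma adjusted p = 0.000112 and 0.0013). MEF2, MRF1 (a release factor), RRF1 (a recycling factor) and TUF1 (an elongation factor) were higher in FSJ by 1.40, 0.81, 1.22 and 0.96, and MEF2 and MRF1 in SJ by 0.75 and 0.58. The TUF1 arrays in M25 FSJ spread from 259.3 to 699 around a median of 567.1, beside 802.1 to 1055.9 in EC1118 FSJ. The TUF1 difference was not computed without the lowest array. IFM1, the initiation factor, was not above background on any M25 FSJ array, and its EC1118 FSJ signal was at least 2.42-fold higher (means 46.1 in EC1118 FSJ and 5.5 in M25 FSJ, limma adjusted p = 0.000145). With lipids IFM1 was called lower in M25 (log2 -2.09, limma adjusted p = 0.0123), but the lower bound on its fall was only 1.06-fold. It read 2.4 to 9.4 in M25 FSJ and 14.5 to 29.2 in M25 SJ, above background on 2 of 3 SJ arrays. Both IFM1 adjusted p belong to the fit, which used the signals under background, and not to the bounds. MEF1 fell with lipids in the average (-0.40, limma adjusted p = 0.0479). Of 67 mitochondrial ribosomal protein genes, 55 were higher in EC1118 in FSJ and 41 in SJ, none lower, with medians of 0.85 and 0.66 beside 1.00 and 0.61 for the mitochondrial synthetases. With lipids 12 of them fell in M25 and none in EC1118 (unadjusted p under 0.05 in 10, all lower, beside 5.69% of all probe sets), with medians of -0.40 and -0.15. Of all probe sets, 22.7% were called higher in EC1118 in FSJ, 9.46% higher in SJ, and 5.91% lower with lipids in M25.

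On the cytosolic side, of 80 ribosomal protein genes 14 rose with lipids in M25 and 0 in EC1118 (unadjusted p under 0.05 in 9, all higher, beside 10.1% of all probe sets), and 25 were lower in EC1118 than in M25 in FSJ, with 1 higher and 1 lower in SJ. Of all probe sets, 2.84% were called higher with lipids in M25 and 12.4% lower in EC1118 in FSJ. In SJ the called shares were 9.46% higher and 10.3% lower. Among 9 measured cytosolic translation factors, TEF4, an elongation factor subunit, was higher in EC1118 in FSJ and SJ (log2 1.02 and 0.84), HEF3 and SUP45 in FSJ (1.32 and 0.39), and ANB1, the hypoxic form of eIF5A, was lower in FSJ (-0.21). With lipids, ANB1 rose in M25 by 0.28 and EFB1 by 0.38, while HYP2, the aerobic form of eIF5A, fell by 0.60 on the log2 scale. In EC1118 the HYP2 arrays were also lower with lipids, at 3610.5 to 4182 in FSJ against 5101.4 to 5799.1 in SJ. No cytosolic translation factor was called with lipids in that strain. Of 6 genes of general amino acid control, the pathway that senses uncharged transfer RNA, GCN4 and PCL5 were lower in EC1118 in FSJ (-0.32 and -0.60), GCN20 was lower in SJ (-0.36), and PCL5, a cyclin that promotes Gcn4 turnover, rose with lipids in M25 (0.60, limma adjusted p = 0.0067) and in the average (0.38).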

How the data were processed

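Signals of 12 one-colour arrays, 3 biological replicates for each of 4 groups, were used. Each deposited value is a linear intensity for 1 probe set, which the authors computed with MAS5, per the submitters' processing notes. Neither the MAS5 version nor its target intensity is given in the sources used here. Trimmed mean intensity ran between 297.8 and 299.86 over the arrays, no rescaling was applied, and a signal is thus relative to the RNA measured on its array. No correction was made for sequence differences between the strains and the array's probes. Precision is limited by the number of arrays.

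Of 9335 probe sets, 60 controls were left out. To enter the tests, a probe set had to be above background (the 25th percentile of signals on that array) on 3 or more of the 12 arrays, as 7349 were. Gene symbols came from the platform's probe table (6504 probe sets with 1 symbol, 328 with several, 2443 with none), and locus tags and chromosomes from the RefSeq table of assembly R64.

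Signals under 1 were set to 1 and put on the log2 scale. Group means over all 12 arrays were fitted by lmFit of limma 3.58.1 (R 4.3.3), with moderation by eBayes using its intensity trend option. The Benjamini-Hochberg adjustment ran over all 7349 probe sets with a threshold of 0.05. The fit was tested on simulated data. SE is that of the fit. Background percentages count all probe sets under the rule named beside them (adjusted call, unadjusted p or separate arrays). Where a group was not above background on any array, the fold was computed from the background and written as a lower bound.

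The members, the comparison lists and the rule for values were chosen with earlier results of these data known. By that rule, all members are accounted for, values on every array are given for members called in any of the 6 comparisons and for pairs that differ in call, and other members are given as ranges. No direct test sets one class of enzymes against the other. Replicate numbers were not taken to pair the arrays: of 18 same-numbered pairs across groups, 2 had deviations correlated above 0.1. Differently numbered pairs were not compared, so this check cannot decide whether the numbers pair arrays. EFT1, EFT2, TEF1 and TEF2 had no probe set of their own symbol alone. Alternatives covered normalization, floor, pseudocount, filter, replicate block, variance prior, the arrays in the fit and leaving out each array. They were read for the members and for counts over all probe sets, and not for the comparison lists.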

Additional observations from a re-analysis of the deposited data

How the results depend on the processing

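Of 29 called results for single genes, tried under 605 alternative fits, 481 kept the call, 124 lost it and none changed sign. DIA4, the dimmest member, lay near or below background on the M25 FSJ arrays. In the strain comparison in FSJ, the 11 mitochondrial and 4 cytosolic genes called higher became 7 and 1 when only the groups compared were fitted, and 7 and 4 after quantile normalization. With centred arrays they became 7 and 0, with 5 cytosolic genes lower in place of 1, and quantile normalization gave 2. Leaving out 1 array gave 8 to 12 mitochondrial and 1 to 5 cytosolic genes higher, and 1 to 2 cytosolic genes lower. In SJ the 6 mitochondrial calls became 9 when only the groups compared were fitted, with 1 cytosolic gene lower (ILS1) in place of 0; leaving out 1 array gave 5 to 7 and 0 to 1. In M25 the 2 mitochondrial falls became 0 with quantile normalization, centred arrays, log2(signal + 16), signals raised to the background, the replicate block or only the groups compared, and 1 without the filter or the intensity trend; leaving out 1 array gave 0 to 3. The 1 cytosolic rise became 6 with centring and 3 with only the groups compared, and 0 to 3 without 1 array. In the average the 2 mitochondrial falls became 0 with quantile normalization or centring and 1 without the filter (0 to 4 without 1 array), and the 2 cytosolic rises became 6 with centring and 3 with quantile normalization (1 to 5 without 1 array). In EC1118 the 0 cytosolic rises became 0 to 2 without 1 array. The causes were not tested beyond the construction of each alternative. Centring or quantile normalization also moved the split of all calls (higher and lower) in M25 with lipids, 209 and 434 as deposited, to 633 and 240 or 186 and 246. The averaged split of 296 and 372 became 506 and 299 with centring, and the EC1118 split of 49 and 87 became 36 and 106. The split for the difference in lipid response, 11 and 4, became 9 and 51 with centring and 5 and 4 with quantile normalization. With the replicate block, the strain comparison in FSJ gave 10 mitochondrial and 3 cytosolic genes higher and 1 lower, and SJ gave 6 mitochondrial genes higher; apart from FRS1 and NAM2 in FSJ and MSF1 and MST1 in M25 with lipids, no call was lost under it. Averaging several probe sets of a gene could not be tried, since every member has 1.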

Other observations

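DED81, the cytosolic asparaginyl-tRNA synthetase, and YHR020W, the cytosolic prolyl one, carry consecutive locus tags on chromosome VIII (YHR019C and YHR020W), and both were lower in EC1118 than in M25 in FSJ, at log2 -0.51 and -0.35. The pair was noticed after their values were seen. In M25 the log2 changes with lipids were 0.36 for DED81 (limma adjusted p = 0.0516) and 0.22 for YHR020W (0.122), and neither was called.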
